A study of Saccharomyces cerevisiae Vin13 with 18 samples.

Results

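The genes described here come from the yeast Saccharomyces cerevisiae. They are 18 genes for cytosolic aminoacyl-tRNA synthetases or their subunits, the cofactor gene ARC1, and genes for translation initiation, elongation and release factors. They were chosen by gene symbol, as a list of 47 genes, and not by a cut on their measured values, though with earlier results of these data known. Of the 47 genes, 45 had a probe set assigned to them among the 5449 genes measured: 19 synthetase genes counting ARC1 and 26 of 28 factors. TIF1 and EFT1 had no probe set of their own. TIF1 and TIF2 encode the same protein, eIF4A, and EFT1 and EFT2 the same protein, eEF2. The probe sets of TIF2 and EFT2 carry the array's mark for probes shared with other transcripts, so the signal of either copy cannot be told from that of the other.

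The cells were the commercial wine strain VIN13, grown in Chardonnay must at 20 °C after inoculation to an OD600 of 0.1. There were 6 groups: commercial tanks of 300 L on days 2, 5 and 10, and microaerobic vials of 80 ml on the same days, with 3 biological replicates and 1 array each. Day 2 was sampled in exponential growth, day 5 in early and day 10 in late stationary phase, and the labels name no genetic change in any group. Tanks and vials differed in volume and in vessel together, and the effects of these cannot be told apart. Each culture was measured in bulk, and equal amounts of RNA were labelled, so every signal is relative to the RNA of its array: fewer cells of a kind and less RNA per cell cannot be told apart.

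Each synthetase joins 1 amino acid to its tRNA, and charged tRNAs are what the ribosome reads the message with. Initiation factors bring the ribosome to the mRNA and to its start codon: the eIF4 factors bind the cap and unwind the leader, eIF2 delivers the initiator tRNA, eIF2B reloads eIF2 with GTP, and eIF3, eIF1, eIF1A, eIF5 and eIF5B act at start-codon choice and subunit joining. Elongation factors then carry the charged tRNAs and move the ribosome, and release factors end the chain. In yeast, uncharged tRNA activates the kinase Gcn2, which phosphorylates the alpha subunit of eIF2 and so slows its reloading by eIF2B.

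Over all 18 arrays the deposited intensities ran from 4.79 to 39396. All 45 members lay above background, an intensity of 22.3, on every array. Between arrays of a group the lowest correlation across genes was 0.974 for tanks on day 10 and 0.990 to 0.995 in the other groups, and the median SD per gene ran from 0.083 log2 units (vials, day 2) to 0.178 (tanks, day 10). The array's control probe sets for the 3′ and 5′ parts of 8 yeast transcripts, a measure of RNA integrity and labelling, differed by 0.83, 1.15 and 1.36 log2 units in tanks on days 2, 5 and 10, and by 1.00, 1.46 and 1.78 in vials. Genes under 600 nt outside the members and the ribosomal proteins had a median log2 difference, tanks minus vials, of -0.35, -0.27 and -0.25 on these days. The part of RNA quality and gene length in the results below was not tested, except where values with the length trend removed are given.

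Values below are log2 signals, with 1 unit standing for a 2-fold difference, and a log2 difference is the mean of tanks minus the mean of vials, or of the later minus the earlier day. A gene was called where limma's moderated test gave a Benjamini-Hochberg adjusted p under 0.05 over all 5449 genes. Calls were common, so each count of members is set beside the share of all genes called. The arrays of tanks and vials did not overlap for 33 of the 45 members on day 2, 30 on day 5 and 22 on day 10, where this held for 82.2%, 66.2% and 61.6% of all genes. Between day 2 and day 5 the arrays did not overlap for 39 members in tanks and 26 in vials (76.6% and 76.9% of all genes), and between day 5 and day 10 for 16 in tanks and 18 in vials (41.5% and 46.2%).

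More synthetases were called higher in tanks than lower on day 2, and the reverse held on day 5. On day 2, 7 of 19 were higher in tanks, 3 were lower and 9 missed the threshold. In all 52.6% were called, beside 77.3% of all genes (38.2% higher and 39.1% lower). Their median log2 difference was 0.19, and that of all genes was -0.01. Genes outside the members and the ribosomal proteins had medians of 0.19 at 1200 nt to under 1800 nt and 0.01 from 1800 nt up. The median synthetase length was 1788 nt. With the length trend removed the median was 0.17 for synthetases and 0.06 for all genes. On day 5, 2 synthetases were higher, 11 lower and 6 not called, with a median of -0.34. Of all genes 61.9% were called then (33.1% higher, 28.8% lower), with a median of 0.02. Day 10 gave 3 higher, 3 lower and 13 not called, with a median of -0.10, beside 58.7% of all genes called (32.3% higher, 26.4% lower) and a median of 0.03. ALA1, ILS1 and WRS1, the alanyl-, isoleucyl- and tryptophanyl-tRNA synthetases, were called on none of the 3 days.

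On each array the median synthetase was set against its own mean in vials on day 2. It stood at 0.04, 0.18 and 0.17 log2 units in tanks on day 2, against -0.03, -0.09 and 0.09 in vials. On day 5 it stood at -0.38, -0.65 and -0.66 in tanks, against -0.01, -0.17 and -0.40 in vials. On day 10 the tanks gave -0.66, -0.57 and -0.46 and the vials -0.56, -0.49 and -0.43. The tank and vial arrays overlapped on each of these days, on day 5 through the highest tank array and the lowest vial array. All arrays of day 10, of either scale, stood below every vial array of day 2.

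**Figure D1:**
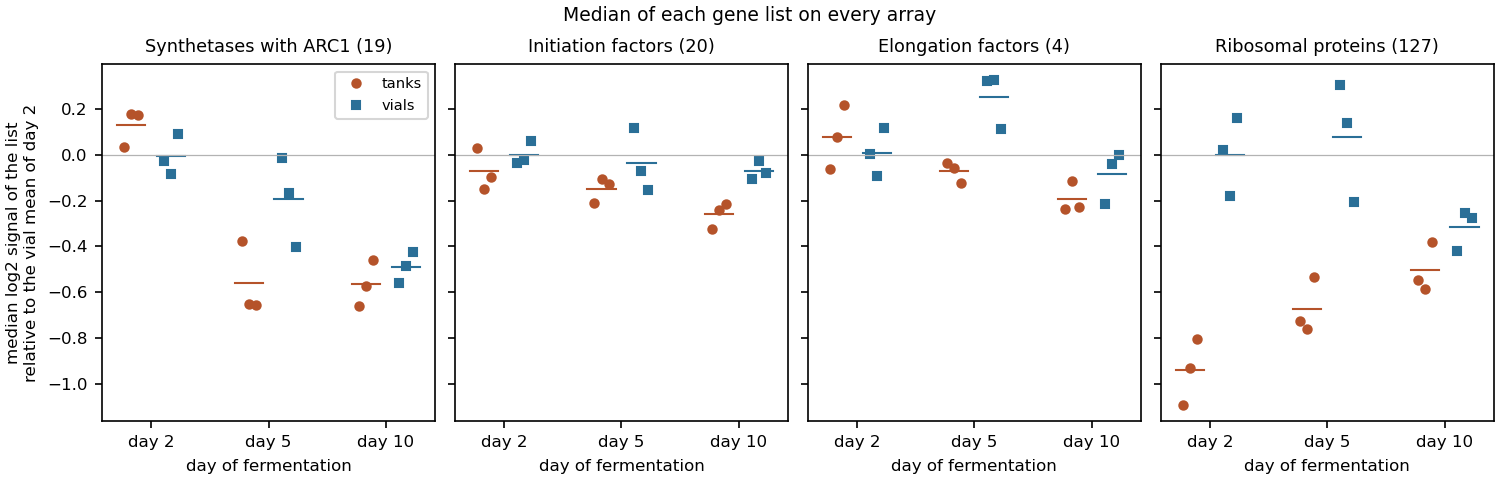
Median log2 signal of each gene list on every array, relative to the mean of the vial arrays of day 2 (vertical axis), by day (horizontal axis), for tanks (circles) and vials (squares), with group means as lines. On day 5 the synthetases stood at -0.38 to -0.66 in tanks and -0.01 to -0.40 in vials, while the 127 ribosomal protein genes stood at -0.80 to -1.09 in tanks on day 2 and -0.18 to 0.16 in vials.

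KRS1, the lysyl-tRNA synthetase, was lower in tanks on days 2 and 5. On day 2 its log2 signal was 11.70, 11.49 and 11.61 in tanks, against 12.71, 12.45 and 12.75 in vials. No tank array reached any vial array, and the log2 difference of -1.04 (SE 0.13, adjusted p = 1.94e-06) is a 2.05-fold lower signal in tanks. On day 5 the values were 11.14, 10.91 and 11.04 in tanks, against 11.90, 11.67 and 11.26 in vials, again without overlap, with a difference of -0.58 (SE 0.13, adjusted p = 0.00117). By day 10 the log2 difference was -0.26 (SE 0.13, adjusted p = 0.105), not called.

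MES1, the methionyl-tRNA synthetase, was the only synthetase gene called lower in tanks on all 3 days. Its log2 signal on day 2 was 11.18, 10.87 and 10.98 in tanks, against 11.71, 11.60 and 11.91 in vials, and on day 5 it was 10.25, 10.22 and 10.27 in tanks, against 10.95, 10.86 and 10.70 in vials. The groups did not overlap on either day, with log2 differences of -0.73 (SE 0.11, adjusted p = 1.2e-05) on day 2 and -0.59 (SE 0.11, adjusted p = 0.000214) on day 5. On day 10 it was 10.89, 10.66 and 10.69 in tanks, against 10.91, 11.04 and 11.15 in vials, where the tank values lay just under the vial values and the difference of -0.28 (SE 0.11, adjusted p = 0.0346) lost its call when only the groups compared were fitted (adjusted p = 0.079) and when any 1 of 4 of the 6 arrays of that day was left out (up to 0.127). SES1, the seryl-tRNA synthetase, had a log2 signal of 11.18, 11.27 and 11.32 in tanks, against 11.68, 11.64 and 11.75 in vials on day 2. Its tank arrays lay below all vial arrays then and on day 5, with differences of -0.43 (SE 0.11, adjusted p = 0.0013) and -0.49 (SE 0.11, adjusted p = 0.000699), while on day 10 the difference was -0.01 (SE 0.11, adjusted p = 0.927).

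DPS1 and FRS2 were the synthetase genes called higher in tanks on all 3 days. How many of all genes were called higher, or lower, on all 3 days was not counted. DPS1, the aspartyl-tRNA synthetase, had a log2 signal of 12.41, 12.60 and 12.63 in tanks, against 11.79, 11.81 and 11.99 in vials on day 2. On day 10 it was 12.23, 12.58 and 12.21 in tanks, against 11.64, 11.68 and 11.79 in vials. All tank arrays lay above all vial arrays on each day, and the log2 differences were 0.68 (SE 0.11, adjusted p = 2.84e-05) on day 2, 0.50 (SE 0.11, adjusted p = 0.00106) on day 5 and 0.64 (SE 0.11, adjusted p = 0.000135) on day 10. The day 5 difference of DPS1 was 0.32 with the length trend removed, still called. DED81, the asparaginyl-tRNA synthetase, which charges the amide of aspartate, had 11.80, 11.80 and 12.04 in tanks, against 11.11, 11.04 and 11.40 in vials on day 2. The groups did not overlap, with a difference of 0.70 (SE 0.15, adjusted p = 0.000487); on day 5 it was 0.28 (SE 0.15, adjusted p = 0.118), not called, and on day 10 0.46 (SE 0.15, adjusted p = 0.015), a call lost without tank replicate 2 (adjusted p = 0.085) or vial replicate 1 (0.0616) of that day and with the length trend removed (0.0723).

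FRS1 and FRS2 encode the beta and alpha subunits of 1 enzyme, the phenylalanyl-tRNA synthetase, and on day 5 their signals differed in opposite directions between the scales. FRS2 had a log2 signal of 10.96, 10.84 and 10.68 in tanks, against 10.13, 9.98 and 10.27 in vials on day 2, without overlap. Its log2 differences were 0.70 (SE 0.11, adjusted p = 3.07e-05), 0.47 (SE 0.11, adjusted p = 0.00187) and 0.57 (SE 0.11, adjusted p = 0.00046) on days 2, 5 and 10, that of day 5 being 0.30 with the length trend removed and still called. FRS1 stood at 11.37, 11.14 and 11.32 in tanks, against 10.90, 10.81 and 11.18 in vials on day 2, where 1 tank array lay within the vial range, and at 10.59, 10.34 and 10.37 in tanks, against 11.33, 11.19 and 10.73 in vials on day 5, where every tank array lay below every vial array. The log2 differences of FRS1 were 0.31 (SE 0.15, adjusted p = 0.0734) on day 2, not called, -0.65 (SE 0.15, adjusted p = 0.00162) on day 5 and -0.23 (SE 0.15, adjusted p = 0.218) on day 10, not called. The difference between the subunits itself was not tested.

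TYS1, the tyrosyl-tRNA synthetase, changed side between the days. On day 2 its log2 signal was 10.21, 10.28 and 10.38 in tanks, against 9.64, 9.56 and 9.94 in vials, with all tank arrays above all vial arrays. On day 5 it was 9.38, 9.06 and 9.06 in tanks, against 10.47, 10.06 and 9.80 in vials, with all tank arrays below. The log2 difference was 0.57 (SE 0.17, adjusted p = 0.00628) on day 2 and -0.94 (SE 0.17, adjusted p = 0.000194) on day 5. On day 10 the tanks, at 9.60, 8.97 and 9.32, still lay below the vials, at 9.76, 10.04 and 10.03, with a difference of -0.65 (SE 0.17, adjusted p = 0.00433). GRS1, the glycyl-tRNA synthetase, was the other synthetase gene called higher in tanks on day 2 and lower on day 5. It had 11.88, 11.68 and 11.92 in tanks, against 11.37, 11.38 and 11.46 in vials on day 2, where the groups did not overlap, and 10.72, 10.51 and 10.53 in tanks, against 11.22, 10.95 and 10.61 in vials on day 5, where the highest tank array lay above the lowest vial array. The log2 differences were 0.42 (SE 0.12, adjusted p = 0.00459) and -0.34 (SE 0.12, adjusted p = 0.0227), and the day 5 call was lost in 5 alternative settings, 4 of them leaving out an array of that day (adjusted p up to 0.151).

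HTS1 and GUS1 were higher in tanks on day 2 and not called afterwards. HTS1, which encodes the histidyl-tRNA synthetase of cytosol and mitochondria, had a log2 signal of 12.02, 11.89 and 12.02 in tanks, against 11.39, 11.37 and 11.36 in vials on day 2. Tank and vial arrays did not overlap, and the difference was 0.61 (SE 0.12, adjusted p = 0.000135). On day 5 the groups overlapped and the difference was 0.01 (SE 0.12, adjusted p = 0.969).

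Glutamyl-tRNA synthetase (GUS1), methionyl-tRNA synthetase (MES1) and ARC1 form 1 complex in yeast, in which ARC1 binds both enzymes and their tRNAs. GUS1 had 13.36, 13.52 and 13.42 in tanks, against 12.83, 12.84 and 12.99 in vials on day 2, with all tank arrays above the vial arrays and a log2 difference of 0.55 (SE 0.09, adjusted p = 4.55e-05). ARC1 had 11.43, 11.69 and 11.65 in tanks, against 11.32, 11.41 and 11.45 in vials on that day, where the lowest tank array lay within the vial range, and 10.51, 10.45 and 10.44 in tanks, against 11.38, 11.07 and 10.88 in vials on day 5, where all tank arrays lay below. The log2 differences of ARC1 were 0.19 (SE 0.12, adjusted p = 0.136) on day 2, not called, -0.64 (SE 0.12, adjusted p = 0.000172) on day 5 and -0.15 (SE 0.12, adjusted p = 0.273) on day 10, not called. On day 2, then, GUS1 was higher in tanks, MES1 lower and ARC1 not called. Whether these differed from each other was not tested.

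On day 5 the synthetases lower in tanks also included those of leucine (CDC60, -0.59, SE 0.13, adjusted p = 0.00108), glutamine (GLN4, -0.49, SE 0.15, adjusted p = 0.00928), valine (VAS1, -0.36, SE 0.09, adjusted p = 0.00259) and threonine (THS1, -0.28, SE 0.10, adjusted p = 0.0248), given as log2 differences. The GLN4 call was lost without vial replicate 1 of that day (adjusted p = 0.0533) and the THS1 call in 3 alternative settings (up to 0.12). VAS1 stayed lower on day 10, with 10.42, 10.27 and 10.53 in tanks, against 10.71, 10.83 and 10.72 in vials. The tank arrays all lay below the vial arrays, and the difference was -0.34 (SE 0.09, adjusted p = 0.00422).

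**Figure D2:**
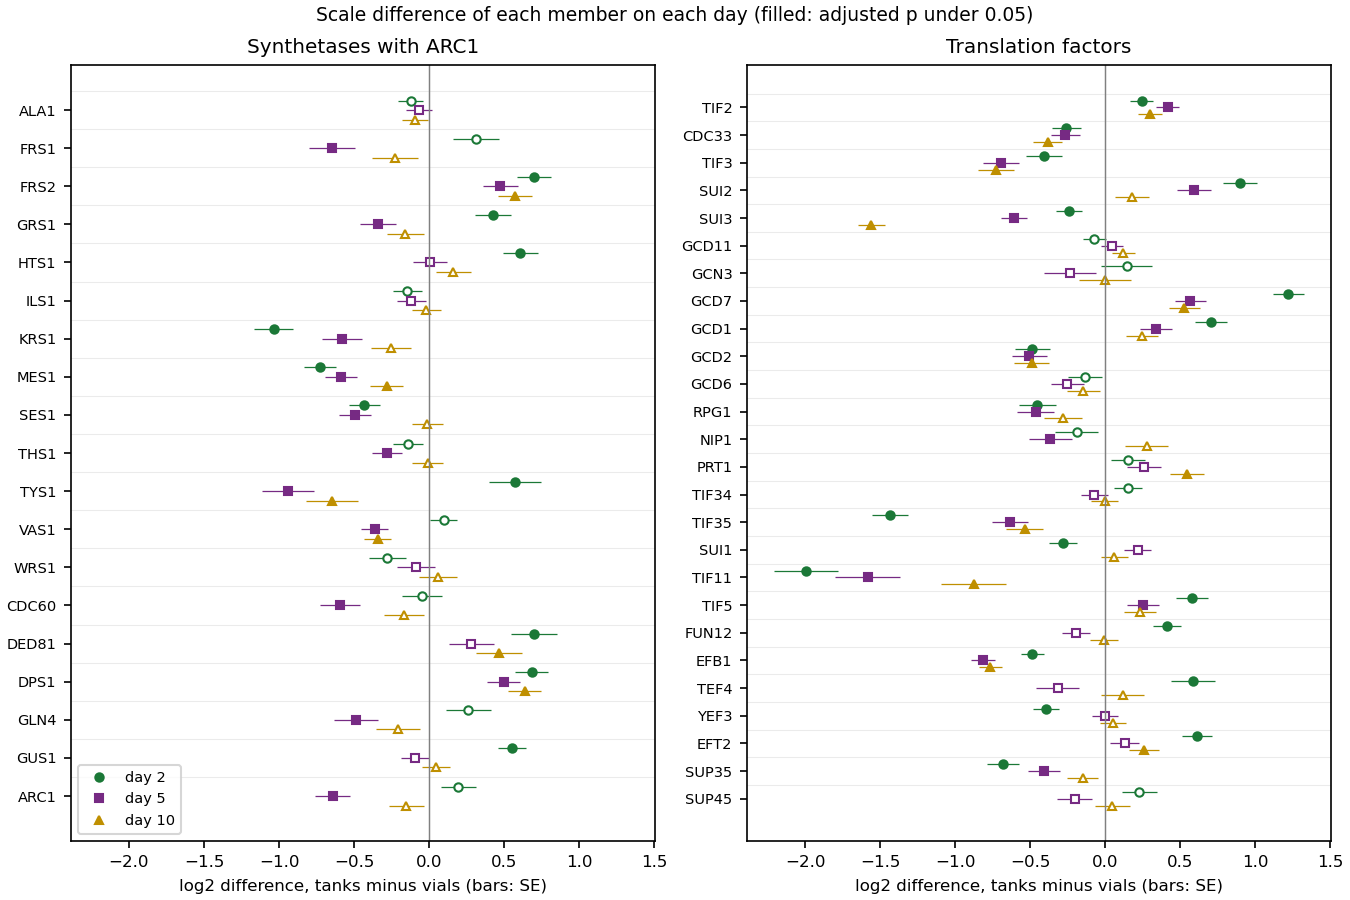
Log2 difference, tanks minus vials (horizontal axis), of each of the 45 measured members (vertical axis) on days 2, 5 and 10, with SE bars; filled symbols have an adjusted p under 0.05. Among synthetases TYS1 lay at 0.57 on day 2 and -0.94 on day 5, and among factors TIF11 lay at -1.99 on day 2 and GCD7 at 1.22.

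Between day 2 and day 5 most synthetases fell at one scale or at both. In tanks 13 of 19 fell, 1 rose and 5 missed the threshold, and the median log2 difference was -0.72, where 73.3% of all genes were called (34.2% higher, 39.1% lower) and the median of all genes was -0.05. Vials gave 9 that fell, 2 that rose and 8 not called, with a median of -0.20, beside 67.6% of all genes called (26.5% higher, 41.1% lower) and a median of -0.16. ARC1, GLN4, GRS1, GUS1, HTS1, KRS1, MES1, SES1 and WRS1 fell at both scales. How many of all genes fell at both scales was not counted. In vials the ARC1 and GUS1 calls were lost in 9 and 4 alternative settings, the length trend among them (adjusted p = 0.332 and 0.341). From day 5 to day 10 the tanks gave 1 rise, 1 fall and 17 not called, beside 39% of all genes called. In the vials 6 fell and none rose over the same days, beside 30.7% called (11.3% higher, 19.5% lower).

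In tanks the steepest falls from day 2 to day 5 were those of HTS1, GLN4 and GRS1. HTS1 stood at 10.81, 10.56 and 10.63 on day 5, against 12.02, 11.89 and 12.02 on day 2, and its log2 difference was -1.31 (SE 0.12, adjusted p = 2.68e-08). GLN4 stood at 9.41, 9.22 and 9.29 on day 5, against 10.77, 10.58 and 10.42 on day 2, with a difference of -1.28 (SE 0.15, adjusted p = 6.69e-07). No array of day 5 reached an array of day 2 for either gene. GRS1, whose values on both days are given above, fell by 1.24 (SE 0.12, adjusted p = 9.96e-08).

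In vials the steepest falls from day 2 to day 5 were those of KRS1, MES1 and SES1, the genes that were lower in tanks on day 2. Both comparisons use the vial arrays of day 2. KRS1 fell by 1.03 (SE 0.13, adjusted p = 3.14e-06), MES1 by 0.90 (SE 0.11, adjusted p = 1.64e-06) and SES1 by 0.81 (SE 0.11, adjusted p = 3.87e-06) on the log2 scale. Their values on every array of these days, given above for KRS1 and MES1, did not overlap between the days. SES1 stood at 11.13, 10.94 and 10.58 in vials on day 5, below its day 2 arrays. The same genes also fell in tanks, with log2 differences of -0.57 (SE 0.13, adjusted p = 0.000896), -0.76 (SE 0.11, adjusted p = 7.92e-06) and -0.87 (SE 0.11, adjusted p = 1.2e-06).

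FRS2 went the other way and rose at both scales. Its tank arrays stood at 11.30, 11.41 and 11.12 on day 5, against 10.96, 10.84 and 10.68 on day 2, a log2 difference of 0.45 (SE 0.11, adjusted p = 0.00194). Its vial arrays stood at 10.85, 10.86 and 10.71 on day 5, against 10.13, 9.98 and 10.27 on day 2, a difference of 0.68 (SE 0.11, adjusted p = 6.07e-05). VAS1 rose in vials by a log2 difference of 0.26 (SE 0.09, adjusted p = 0.0201), a call lost without vial replicate 2 of day 2 (adjusted p = 0.0928) or replicate 1 of day 5 (0.0949), and then fell at both scales to day 10, by 0.34 (SE 0.09, adjusted p = 0.0102) in vials (adjusted p = 0.0512 without vial replicate 1 of day 5) and by 0.32 (SE 0.09, adjusted p = 0.0112) in tanks, the tank call being lost when only the groups compared were fitted (0.0752).

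Late in the course few synthetases moved in tanks. MES1 rose there from day 5 to day 10, with a log2 difference of 0.50 (SE 0.11, adjusted p = 0.00198), and its tank arrays of day 10 all lay above those of day 5. In vials SES1, HTS1 and ARC1 fell in both steps. SES1 stood at 10.42, 10.45 and 10.42 in vials on day 10, under every array of day 5, and fell by 0.45 (SE 0.11, adjusted p = 0.00411). HTS1 fell by 0.44 (SE 0.12, adjusted p = 0.00872) over these days. ARC1 stood at 10.59, 10.75 and 10.92 on day 10, against 11.38, 11.07 and 10.88 on day 5, with overlap, and its difference of -0.36 (SE 0.12, adjusted p = 0.0288) lost the call in 6 alternative settings, with adjusted p up to 0.156. Calls in this step also hung on single arrays: 2 synthetases were called without vial replicate 1 of day 5, 3 without replicate 2 and 12 without replicate 3. In tanks 4 synthetases were called in this step without tank replicate 2 of day 10 or vial replicate 3 of day 5.

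The change from day 2 to day 5 differed between the scales for 10 of 19 synthetases, tested as the tank change minus the vial change: 9 were lower and 1 was higher, where 58.8% of all genes were called (32.9% higher, 25.9% lower). The median was -0.42, against 0.08 over all genes. TYS1 had the lowest value, -1.52 (SE 0.24, adjusted p = 7.37e-05) log2 units: its day 5 minus day 2 difference was -1.12 (SE 0.17, adjusted p = 1.88e-05) in tanks and, not called, 0.40 (SE 0.17, adjusted p = 0.0515) in vials. FRS1 came next with -0.96 (SE 0.22, adjusted p = 0.00135), made of -0.84 in tanks and 0.12 in vials, and then ARC1 with -0.84 (SE 0.16, adjusted p = 0.000427), made of -1.12 and -0.28. KRS1 was the only one with a higher value, 0.46 (SE 0.19, adjusted p = 0.0446), since it fell by less in tanks; that call was lost in 15 alternative settings. From day 5 to day 10 no synthetase was called for a difference between the scales by limma, beside 4.92% of all genes called (2.62% higher, 2.29% lower). At an unadjusted p under 0.05 stood 3 of the 19 synthetases and 1142 of all 5449 genes. Without tank replicate 2 of day 10 the count of called synthetases was 1, and without vial replicate 3 of day 5 it was 2.

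**Figure D3:**
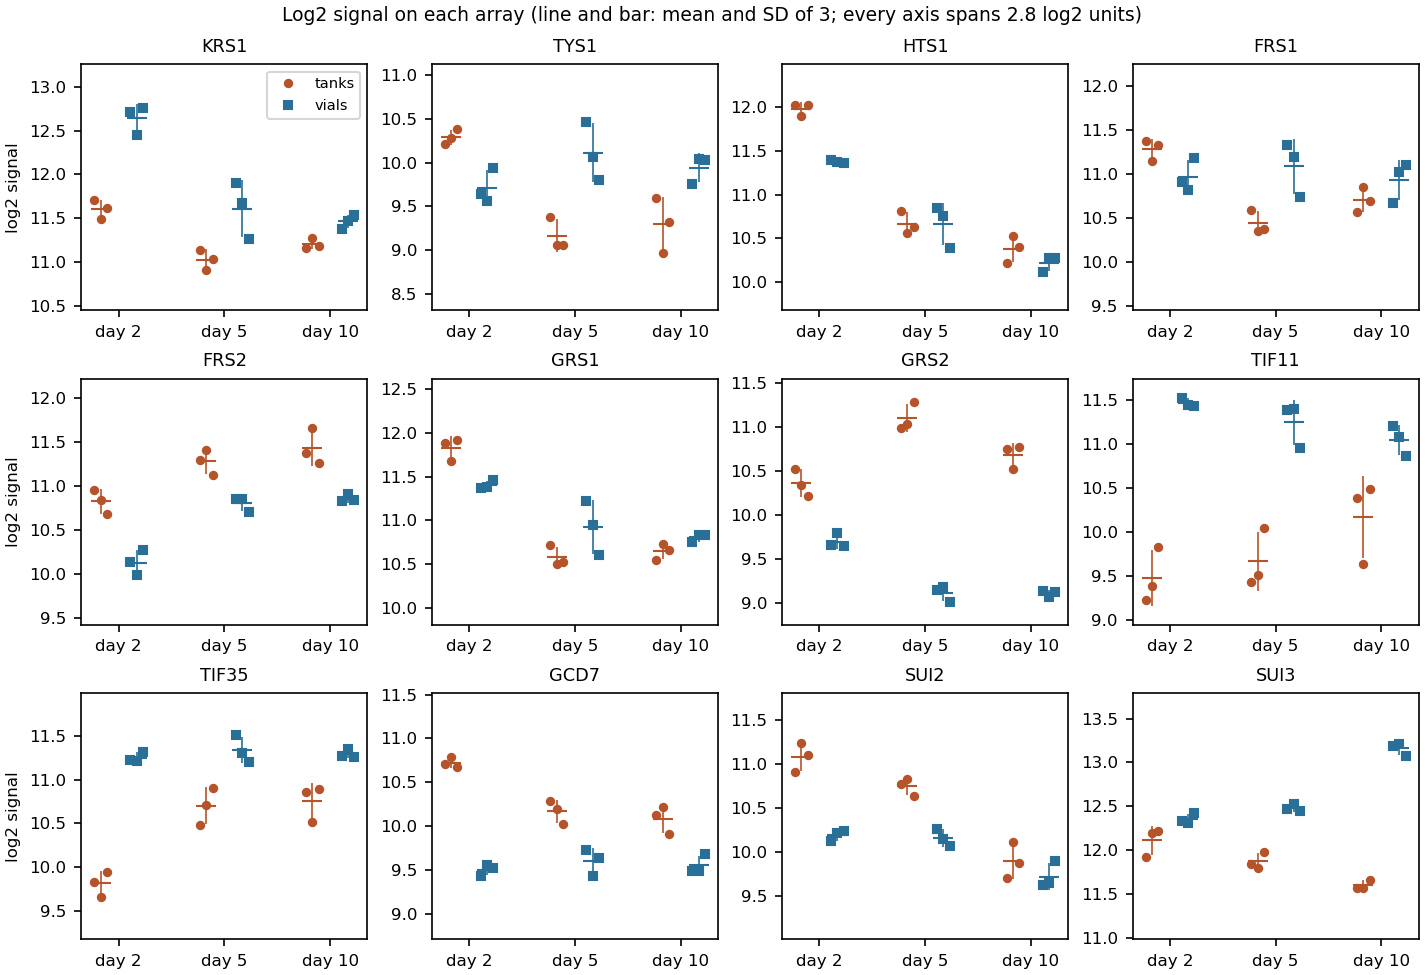
Log2 signal (vertical axes, each spanning 2.8 units) on every array by day (horizontal axes) for 11 members and GRS2, with tanks as circles left of vials as squares, and the mean and SD of 3 arrays as line and bar. TYS1 lay higher in tanks on day 2 and lower on day 5, FRS2 lay higher in tanks on all days, TIF11 lay at 9.22, 9.38 and 9.83 in tanks on day 2, and SUI3 reached 13.19, 13.21 and 13.08 in vials on day 10.

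The translation factors divided nearly evenly between the scales on day 2. Of 26, 8 were higher in tanks, 11 were lower and 7 missed the threshold. Their median log2 difference was -0.10, beside 77.3% of all genes called (38.2% higher, 39.1% lower). On day 5, 5 were higher, 10 lower and 11 not called, with a median of -0.22, beside 61.9% of all genes called (33.1% higher, 28.8% lower). Day 10 gave 4 higher, 7 lower and 15 not called, with a median of 0.02, beside 58.7% (32.3% higher, 26.4% lower). GCD7 and TIF2 were higher in tanks on all 3 days, and CDC33, EFB1, GCD2, SUI3, TIF11, TIF3 and TIF35 were lower on all 3. How many of all genes kept their direction on all 3 days was not counted. TIF2, CDC33 and SUI3 were no longer called on day 2, nor CDC33 on day 5, once the length trend was removed. The split of day 2 depended on scaling, and it was 10 higher and 9 lower with arrays centred on their medians. The median of that day was 0.08 with a trend on gene length removed.

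Among the cap-binding and unwinding factors the direction differed by gene. TIF2 stands for eIF4A, the helicase, and had a log2 signal of 14.01, 14.04 and 14.10 in tanks, against 13.82, 13.84 and 13.77 in vials on day 2 and 13.89, 13.88 and 13.83 in tanks, against 13.57, 13.44 and 13.34 in vials on day 5. All tank arrays lay above all vial arrays on each day, with log2 differences of 0.24 (SE 0.08, adjusted p = 0.00878), 0.42 (SE 0.08, adjusted p = 0.000212) and 0.30 (SE 0.08, adjusted p = 0.00351) on days 2, 5 and 10. With the length trend removed they were 0.14 (adjusted p = 0.102), 0.30 and 0.18, and the first was no longer called. TIF3, the eIF4B that works with the helicase, was lower in tanks: on day 5 it had 10.43, 10.41 and 10.68 in tanks, against 11.35, 11.18 and 11.09 in vials, without overlap, and the differences of the 3 days were -0.41 (SE 0.12, adjusted p = 0.00528), -0.69 (SE 0.12, adjusted p = 0.000111) and -0.73 (SE 0.12, adjusted p = 8.01e-05). CDC33, the cap-binding eIF4E, had 10.77, 10.98 and 10.92 in tanks, against 11.35, 11.27 and 11.19 in vials on day 10, again without overlap, and a difference of -0.38 (SE 0.10, adjusted p = 0.00281). On days 2 and 5 its differences were -0.26 (SE 0.10, adjusted p = 0.0208) and -0.27 (SE 0.10, adjusted p = 0.0237). This gene is annotated at 642 nt, and with the length trend removed the day 2 difference was 0.09 (adjusted p = 0.38) and that of day 5 was -0.11 (adjusted p = 0.303). These calls were lost in 4 alternative settings for day 2 and 6 for day 5.

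The subunits of eIF2 did not move together. SUI2, the alpha subunit and target of Gcn2, had a log2 signal of 10.92, 11.24 and 11.10 in tanks, against 10.12, 10.21 and 10.24 in vials on day 2 and 10.77, 10.83 and 10.64 in tanks, against 10.26, 10.15 and 10.06 in vials on day 5. The tank arrays were all above the vial arrays on both days, with log2 differences of 0.90 (SE 0.11, adjusted p = 2.09e-06) and 0.59 (SE 0.11, adjusted p = 0.000317), and 0.18 (SE 0.11, adjusted p = 0.189) on day 10. SUI3, the beta subunit, lay on the other side: 11.92, 12.20 and 12.22 in tanks, against 12.33, 12.31 and 12.42 in vials on day 2, 11.85, 11.79 and 11.98 in tanks, against 12.47, 12.53 and 12.44 in vials on day 5 and 11.57, 11.57 and 11.67 in tanks, against 13.19, 13.21 and 13.08 in vials on day 10. The tank arrays were below the vial arrays each day, and the log2 differences were -0.24 (SE 0.09, adjusted p = 0.0205), -0.61 (SE 0.09, adjusted p = 2.28e-05) and -1.56 (SE 0.09, adjusted p = 8.4e-10). The day 2 call of SUI3 was lost in 4 alternative settings, with -0.13 (adjusted p = 0.173) once the length trend was removed and -0.15 (adjusted p = 0.137) without tank replicate 1 of that day. On day 10 the signal of SUI3 was 2.94-fold lower in tanks. GCD11, the gamma subunit, was called on no day.

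Subunits of eIF2B, the exchange factor of eIF2, were also called in both directions. GCD7, the beta subunit, had a log2 signal of 10.71, 10.79 and 10.68 in tanks, against 9.44, 9.56 and 9.52 in vials on day 2, the factor with the largest higher signal in tanks. No arrays overlapped, and the log2 difference was 1.22 (SE 0.10, adjusted p = 2.19e-08), a 2.33-fold higher signal. It was 0.57 (SE 0.10, adjusted p = 0.000197) on day 5 and 0.53 (SE 0.10, adjusted p = 0.000422) on day 10. GCD1, the gamma subunit, had 10.86, 10.64 and 10.58 in tanks, against 9.95, 9.96 and 10.06 in vials on day 2, and its differences were 0.70 (SE 0.11, adjusted p = 1.39e-05), 0.34 (SE 0.11, adjusted p = 0.0111) and, not called, 0.25 (SE 0.11, adjusted p = 0.058). The day 5 call of GCD1 was lost with the length trend removed (0.17, adjusted p = 0.154) and without tank replicate 2 of that day (0.26, adjusted p = 0.0646). GCD2, the delta subunit, was lower in tanks, with 8.94, 8.95 and 9.03 in tanks, against 9.69, 9.43 and 9.31 in vials on day 5 and differences of -0.49 (SE 0.12, adjusted p = 0.00118), -0.51 (SE 0.12, adjusted p = 0.00131) and -0.49 (SE 0.12, adjusted p = 0.00197). Repeated quantile normalization gave -0.30 for GCD2 on day 2, still called. On the days given the arrays of these genes did not overlap. GCN3 and GCD6, the alpha and epsilon subunits, were called on no day. Differences between subunits were not tested.

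In eIF3, the scaffold that binds the small ribosomal subunit, the g subunit TIF35 differed most on days 2 and 5. Its log2 signal was 9.84, 9.66 and 9.95 in tanks, against 11.23, 11.21 and 11.32 in vials on day 2 and 10.86, 10.52 and 10.90 in tanks, against 11.27, 11.35 and 11.26 in vials on day 10. The tank arrays lay below the vial arrays on all days, and the log2 difference was -1.43 (SE 0.12, adjusted p = 2.24e-08) on day 2, a 2.7-fold lower signal, -0.64 (SE 0.12, adjusted p = 0.000303) on day 5 and -0.54 (SE 0.12, adjusted p = 0.0014) on day 10. RPG1, the a subunit, was lower in tanks on days 2 and 5, by 0.45 (SE 0.12, adjusted p = 0.00336) and 0.46 (SE 0.12, adjusted p = 0.00396), and the c subunit NIP1 on day 5, by 0.37 (SE 0.14, adjusted p = 0.0363). That NIP1 call was lost when any 1 of 4 of the 6 arrays of the day was left out, with adjusted p up to 0.106. PRT1, the b subunit, was higher in tanks on day 10, where it had 10.85, 10.68 and 10.78 in tanks, against 10.14, 10.23 and 10.30 in vials. Those arrays did not overlap, and the difference was 0.55 (SE 0.11, adjusted p = 0.000641). TIF34, the i subunit, was called on no day.

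TIF11 encodes eIF1A, which helps the small subunit scan for the start codon, and had the largest scale difference of all members on day 2. Its log2 signal was 9.22, 9.38 and 9.83 in tanks, against 11.53, 11.44 and 11.43 in vials on day 2, 9.43, 9.51 and 10.04 in tanks, against 11.39, 11.40 and 10.95 in vials on day 5 and 10.39, 9.63 and 10.48 in tanks, against 11.20, 11.07 and 10.86 in vials on day 10. Each tank array lay below each vial array on every day. The log2 differences were -1.99 (SE 0.22, adjusted p = 3.15e-07), -1.58 (SE 0.22, adjusted p = 1.14e-05) and -0.88 (SE 0.22, adjusted p = 0.00246), which are 3.98-fold, 3-fold and 1.83-fold lower signals in tanks. This is a short gene, annotated at 462 nt, and with the length trend removed the differences were -1.49, -1.29 and -0.68, all still called. The tank replicates spread more than the vial replicates, most on day 10, where tank replicate 2 stood lowest.

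Of the other start-site factors, TIF5 (eIF5, which makes eIF2 hydrolyse its GTP) and FUN12 (eIF5B, which joins the subunits) were higher in tanks on day 2, with log2 differences of 0.58 (SE 0.11, adjusted p = 0.000101) and 0.41 (SE 0.09, adjusted p = 0.000775). TIF5 was called again on day 5 (0.25, SE 0.11, adjusted p = 0.0475), but the call was lost in 14 alternative settings, and the value was 0.13 (adjusted p = 0.294) with the length trend removed. SUI1, which encodes eIF1, the factor that holds the ribosome open for scanning, had 13.61, 13.40 and 13.23 in tanks, against 13.73, 13.68 and 13.67 in vials on day 2 with no overlap and a difference of -0.28 (SE 0.09, adjusted p = 0.0109). At 327 nt it is the shortest member, and removing the length trend turned this value to 0.29 (adjusted p = 0.0183), so its direction on day 2 is not settled by these values. That trend was fitted on all genes, the ribosomal protein genes included, and how much they add to it was not tested. Without tank replicate 3 of that day it was -0.19 (adjusted p = 0.0749).

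The elongation factors also divided. EFB1 encodes the exchange subunit of eEF1B, which reloads the tRNA carrier eEF1A, and had a log2 signal of 12.90, 12.87 and 12.85 in tanks, against 13.71, 13.71 and 13.64 in vials on day 5 and 12.88, 12.80 and 12.82 in tanks, against 13.69, 13.57 and 13.55 in vials on day 10. The replicates were tight and all tank arrays were below the vial arrays, with log2 differences of -0.48 (SE 0.08, adjusted p = 3.04e-05), -0.81 (SE 0.08, adjusted p = 3.4e-07) and -0.76 (SE 0.08, adjusted p = 6.49e-07) on days 2, 5 and 10. TEF4, a gamma subunit of the same complex, had 11.91, 12.17 and 12.41 in tanks, against 11.58, 11.38 and 11.76 in vials on day 2, higher in tanks without overlap (0.58, SE 0.14, adjusted p = 0.00144), and was not called on days 5 (-0.32, SE 0.14, adjusted p = 0.066) and 10. YEF3, the fungal factor eEF3, had 13.97, 13.98 and 14.13 in tanks, against 14.42, 14.38 and 14.47 in vials on day 2 and was lower in tanks on that day (-0.40, SE 0.09, adjusted p = 0.000558). EFT2, which stands for eEF2, the translocase, had 14.03, 14.10 and 14.24 in tanks, against 13.51, 13.42 and 13.60 in vials on day 2 and was higher in tanks on day 2 (0.61, SE 0.10, adjusted p = 2.89e-05) and day 10 (0.26, SE 0.10, adjusted p = 0.0359), the day 10 call being lost in 7 alternative settings, with 0.19 (adjusted p = 0.125) once the length trend was removed. For neither gene did the arrays of day 2 overlap.

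Release factor eRF3, encoded by SUP35, had a log2 signal of 10.41, 10.24 and 10.27 in tanks, against 10.98, 10.87 and 11.11 in vials on day 2, with all tank arrays below the vial arrays. Its log2 differences were -0.68 (SE 0.10, adjusted p = 1.62e-05) on day 2, -0.41 (SE 0.10, adjusted p = 0.00291) on day 5 and -0.15 (SE 0.10, adjusted p = 0.227) on day 10. SUP45, which encodes eRF1, the protein that reads the stop codon, was called on none of the days. Their proteins form 1 complex, and a difference between their genes was not tested.

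**Figure D4:**
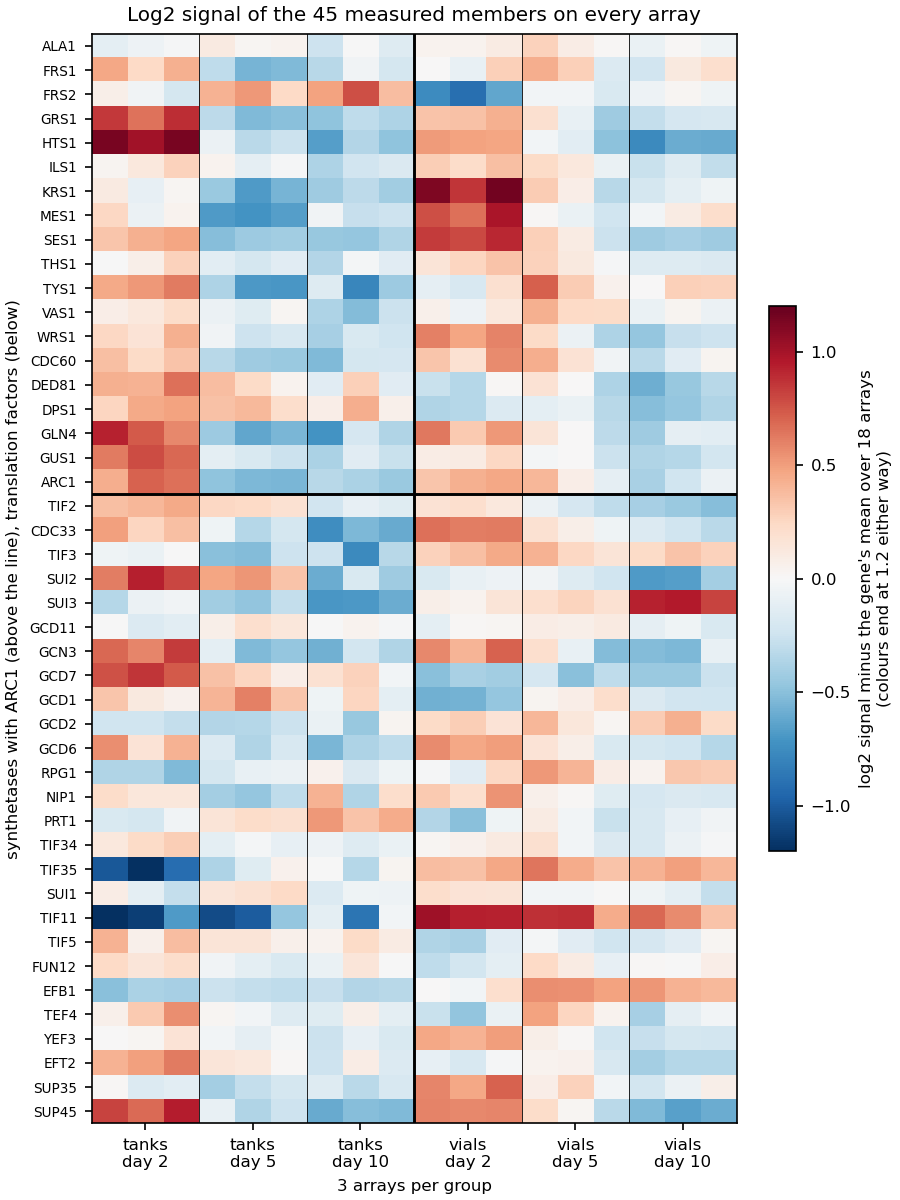
Log2 signal of each of the 45 measured members (vertical axis) on each of the 18 arrays (horizontal axis, 3 per group, tanks left of vials) minus the gene's mean over all arrays, from blue (lower) to red (higher), with colours ending at 1.2 either way. TIF11 and TIF35 stand lowest in tanks on day 2, HTS1 highest in tanks on day 2, and SUI3 highest in vials on day 10.

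With time the factors moved in both directions. From day 2 to day 5, 14 of 26 fell in tanks, 6 rose and 6 missed the threshold, and the median log2 difference was -0.22, while in vials 8 fell, 5 rose and 13 were not called, with a median of -0.04. These counts stand beside the 73.3% and 67.6% of all genes called. With the length trend removed, 13 factors were called in tanks, 5 higher and 8 lower. CDC33, GCD6, GCN3, NIP1, SUP45 and TIF2 fell at both scales, again without a count of all genes that did so. The vial call of NIP1 was lost in 4 alternative settings and the tank call of TIF2 in 9, with adjusted p of 0.101 and 0.628 once the length trend was removed. Whether factors and synthetases differ as classes was not tested.

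SUP45 and GCN3 fell most from day 2 to day 5 at both scales. SUP45 stood at 11.28, 11.00 and 11.11 in tanks on day 5, against 12.17, 12.04 and 12.31 on day 2, and at 11.58, 11.38 and 11.04 in vials, against 11.96, 11.94 and 11.94. The days did not overlap at either scale, and the log2 differences were -1.04 (SE 0.12, adjusted p = 4.21e-07) in tanks and -0.61 (SE 0.12, adjusted p = 0.000183) in vials. GCN3, the regulatory subunit of eIF2B that senses phosphorylated eIF2, stood at 9.12, 8.71 and 8.77 in tanks on day 5, against 9.92, 9.82 and 10.08 on day 2. It fell by 1.08 (SE 0.17, adjusted p = 2.75e-05) in tanks and by 0.70 (SE 0.17, adjusted p = 0.00176) in vials. GCD6, the catalytic subunit of eIF2B, fell by 0.61 (SE 0.11, adjusted p = 9.57e-05) in tanks. CDC33 fell by 0.56 (SE 0.10, adjusted p = 6.84e-05) in vials, where the difference was -0.34 with the length trend removed, still called.

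TIF35 rose most over these days in tanks. Its tank arrays stood at 10.49, 10.71 and 10.91 on day 5, against 9.84, 9.66 and 9.95 on day 2, a log2 difference of 0.89 (SE 0.12, adjusted p = 5.55e-06), while in vials the difference was 0.09 (SE 0.12, adjusted p = 0.54). PRT1 rose in tanks as well (0.34, SE 0.11, adjusted p = 0.0135), and so did RPG1 (0.30, SE 0.12, adjusted p = 0.0414), a call lost in 7 alternative settings. In vials the largest rises were those of GCD1, TEF4 and EFB1. GCD1 stood at 10.55, 10.61 and 10.73 on day 5, against 9.95, 9.96 and 10.06 on day 2, a difference of 0.64 (SE 0.11, adjusted p = 5.1e-05). TEF4 rose by a difference of 0.53 (SE 0.14, adjusted p = 0.00351) and EFB1 by 0.47 (SE 0.08, adjusted p = 5.89e-05).

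From day 5 to day 10 fewer factors were called: 7 fell, 1 rose and 18 were not called in tanks, beside 39% of all genes called (15.3% higher, 23.6% lower), and 8 fell, 1 rose and 17 were not called in vials, beside 30.7%. Without tank replicate 1 of day 10 the tank count was 4, and without any 1 of vial replicates 1 and 2 of day 5 or the 3 vial replicates of day 10 the vial count was 4 or 5. SUI3 was the factor that rose in vials. Its arrays there stood at 13.19, 13.21 and 13.08 on day 10, against 12.47, 12.53 and 12.44 on day 5, a log2 difference of 0.68 (SE 0.09, adjusted p = 3.87e-05), while in tanks it fell by 0.27 (SE 0.09, adjusted p = 0.0228), a call lost in 3 alternative settings (adjusted p up to 0.0889). SUI2 fell at both scales, by 0.85 (SE 0.11, adjusted p = 3.71e-05) in tanks and by 0.44 (SE 0.11, adjusted p = 0.0084) in vials. CDC33 and GCD1 fell in tanks (-0.43, SE 0.10, adjusted p = 0.00248, and -0.42, SE 0.11, adjusted p = 0.0058), and the GCD1 call was lost when only the groups compared were fitted (adjusted p = 0.0672). SUP45 and TEF4 fell in vials (-0.56, SE 0.12, adjusted p = 0.00176, and -0.44, SE 0.14, adjusted p = 0.0285), and the TEF4 call was lost in 5 alternative settings. NIP1 rose in tanks (0.48, SE 0.14, adjusted p = 0.0154), with arrays at 10.79, 10.02 and 10.58 on day 10, against 9.97, 9.91 and 10.07 on day 5. Its lowest array of day 10 lay within the range of day 5, and the call was lost in 4 alternative settings.

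The change from day 2 to day 5 differed between the scales for 11 of 26 factors, 3 with a higher and 8 with a lower value in tanks, beside 58.8% of all genes. TEF4 had the lowest value, -0.90 (SE 0.20, adjusted p = 0.00137) log2 units, made of -0.37 in tanks and 0.53 in vials. GCD7 followed with -0.65 (SE 0.15, adjusted p = 0.00132) and FUN12 with -0.60 (SE 0.13, adjusted p = 0.00108). TIF35 had the highest, 0.80 (SE 0.17, adjusted p = 0.000982), ahead of SUI1 (0.50, SE 0.13, adjusted p = 0.00407) and YEF3 (0.39, SE 0.12, adjusted p = 0.0122). With the length trend removed SUI1 and YEF3 were no longer called (adjusted p = 0.0811 and 0.095). From day 5 to day 10 SUI3 was the only factor called, at -0.95 (SE 0.12, adjusted p = 0.000274), beside 4.92% of all genes called. At an unadjusted p under 0.05 stood 5 of 26 factors and 1142 of all 5449 genes. Without tank replicate 2 of day 10, 4 factors were called.

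Other genes of tRNA charging were counted for comparison. Of 14 mitochondrial synthetases, 9 were higher in tanks and none lower on day 2, 11 and none on day 5, and 10 and 1 on day 10, with median log2 differences of 0.43, 0.52 and 0.53. Of all genes 38.2%, 33.1% and 32.3% were called higher on these days, and 39.1%, 28.8% and 26.4% lower. From day 2 to day 5, 12 of them fell in tanks and 13 in vials, with medians of -0.96 and -0.95, beside 39.1% and 41.1% of all genes called lower. YDR341C and YHR020W, the cytosolic arginyl- and prolyl-tRNA synthetases, were both higher in tanks on day 2 (0.43, SE 0.11, adjusted p = 0.00165, and 0.71, SE 0.12, adjusted p = 5.89e-05) and on day 10 (0.78, SE 0.11, adjusted p = 1.53e-05, and 0.48, SE 0.12, adjusted p = 0.0036), and neither was called on day 5.

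GRS2 is a paralog of the glycyl-tRNA synthetase gene GRS1, and was called in the opposite direction on day 5. GRS2 had a log2 signal of 10.53, 10.34 and 10.21 in tanks, against 9.65, 9.79 and 9.64 in vials on day 2, 10.98, 11.04 and 11.29 in tanks, against 9.15, 9.18 and 9.01 in vials on day 5 and 10.75, 10.52 and 10.78 in tanks, against 9.13, 9.07 and 9.12 in vials on day 10. All tank arrays lay above all vial arrays on each day, with log2 differences of 0.67 (SE 0.10, adjusted p = 2.01e-05), 1.99 (SE 0.10, adjusted p = 3.64e-10) and 1.57 (SE 0.10, adjusted p = 3.99e-09), while those of GRS1 were 0.42, -0.34 and, not called, -0.16. From day 2 to day 5 GRS2 rose in tanks (0.74, SE 0.10, adjusted p = 6.66e-06) and fell in vials (-0.58, SE 0.10, adjusted p = 0.000111), where GRS1 fell at both scales (-1.24 in tanks and -0.48 in vials). The difference between these genes was not tested.

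The 127 cytosolic ribosomal protein genes, the other large group of the translation machinery, were lower in tanks in 98 cases and higher in 5 on day 2, and lower in 111 and higher in 0 on day 5, with median log2 differences of -0.97 and -0.77, beside 39.1% lower and 38.2% higher of all genes on day 2 and 28.8% and 33.1% on day 5. On day 10, 35 were lower and 1 higher, with a median of -0.16, beside 26.4% and 32.3%. Their median annotated gene length was 771 nt, against 1788 nt for the synthetases and 1313 nt for the factors. Genes under 600 nt outside these lists were lower in tanks, as given above. Those of 600 nt to under 1200 nt, the class that holds an annotated 771 nt, had medians of 0.01, 0.05 and 0.06 on days 2, 5 and 10. Annotated lengths run from gene start to gene end and count any intron, so a transcript can be shorter. Which length class the transcripts of the ribosomal protein genes belong to was not determined. The part of gene length in the values of the ribosomal protein genes was not tested.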

How the data were processed

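Per the labels' protocols, biotinylated cRNA was made from 100 ng of total RNA and 7.5 µg of it went onto each Affymetrix array. The submitters' processing notes name Affymetrix Expression Console and RMA; their versions are not given. The authors' deposited values are intensities per probe set, on a linear scale. The written design assumed log2 values, and log2 of each intensity was taken here. Precision is limited by having 3 arrays in each group.

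The array has 10928 probe sets. Those left out were 213 controls, a single one naming several genes, 3470 naming none and 1746 naming a gene absent from the S. cerevisiae annotation. The 1746 were taken as S. pombe, and their 95th percentile (log2 4.48) was the background. The other 5498 stood for 5449 genes, and for 47 genes with several probe sets that of the highest mean was kept. Annotated gene lengths came from the RefSeq assembly R64 and run from gene start to gene end, any intron included.

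Differences were fitted with limma 3.58.1 (R 4.3.3, data.table version 1.17.8) as 6 group means over 18 arrays, with 12 residual degrees of freedom, in 9 comparisons, with Benjamini-Hochberg adjustment over all genes of a comparison. The method was tested on simulated data. Tables and figures used Python 3.11.15, pandas 2.3.3 and matplotlib 3.10.9.

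The members and lists were chosen with earlier results of these data known. Array values are given for called members among the 3 largest rises or falls of their class in a comparison. Alternatives were repeated quantile normalization, median centring, a filter on dim genes, the most variable probe set, array weights, a trended robust prior, a fit of the compared groups alone, a required 2-fold change, removal of a lowess trend on gene length (span 0.3), replicate blocks and leaving out each array. The length trend was fitted on all genes, so the differences of the members and of the ribosomal protein genes are part of it. The labels do not say whether a replicate number marks the same tank or vial followed over the days. Deviations of same-numbered arrays of the groups compared correlated from -0.472 to 0.756, both extremes between day 5 and day 10 in tanks. Differently numbered arrays were not compared, so these values cannot decide it. The main fit took all arrays as independent, though those of different days may be repeated samples of a vessel. The planned promoter motif search was not run, and no sequences are shown.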

Additional observations from a re-analysis of the deposited data

Results flagged for a closer look

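Of all genes, 58.8% were called for a scale difference in the change from day 2 to day 5, and 4.92% from day 5 to day 10. The change between days differed between the scales for 21 of 45 members (46.7%) in the first step. In the second step it differed for 1 (2.22%), by the test of that difference in limma. It is given as the tank change minus the vial change in log2 units for 11 of them, the 3 largest per direction of each class. From day 2 to day 5 the lower values were those of TYS1, -1.52 (SE 0.24, adjusted p = 7.37e-05), FRS1, -0.96 (SE 0.22, adjusted p = 0.00135), ARC1, -0.84 (SE 0.16, adjusted p = 0.000427), TEF4, -0.90 (SE 0.20, adjusted p = 0.00137), GCD7, -0.65 (SE 0.15, adjusted p = 0.00132), and FUN12, -0.60 (SE 0.13, adjusted p = 0.00108). Higher values over the same days were those of TIF35, 0.80 (SE 0.17, adjusted p = 0.000982), SUI1, 0.50 (SE 0.13, adjusted p = 0.00407), KRS1, 0.46 (SE 0.19, adjusted p = 0.0446), and YEF3, 0.39 (SE 0.12, adjusted p = 0.0122). From day 5 to day 10 SUI3 gave -0.95 (SE 0.12, adjusted p = 0.000274). The day 10 tank arrays spread most of all groups, and SUI3 was called in every alternative fit tried, with each array left out in turn included, but its value lies under the 2-fold change that another alternative required.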

How the results depend on the processing

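The 245 single-gene results called (all called members and the other genes given with values) had 6860 values under the alternatives, the required 2-fold change apart. Of these, 297 lost the call in the same direction and 3 turned direction, and 182 of the results had neither. The 3 that turned, all on day 2 with the length trend removed, were SUI1 at 0.29 (adjusted p = 0.0183), CDC33 at 0.090 (adjusted p = 0.38) and CAF20 at 0.045 (adjusted p = 0.708). When a 2-fold change was also required, 1 synthetase and 3 factors stayed between the scales on day 2, 0 and 1 on day 5, and 0 and 1 on day 10. By the same rule 5 and 2 stayed from day 2 to day 5 in tanks, 1 and 0 in vials, 0 and 0 from day 5 to day 10 at either scale, 1 and 0 for the scale difference of the first change and 0 factors for that of the second. Array weights gave 10 synthetases on day 10, 6 synthetases and 14 factors from day 5 to day 10 in tanks, 11 and 14 in vials, and 5 and 6 for the scale difference of that change. With the length trend removed, 3 synthetases and 3 factors were called from day 5 to day 10 in vials and 13 factors from day 2 to day 5 in tanks, and over all comparisons 32 member calls were lost and 23 gained. Fitting only the groups compared left 1 synthetase and 3 factors from day 5 to day 10 in tanks. Leaving out 1 array gave 10 to 12 synthetases and 18 to 20 factors on day 2, 11 to 13 and 11 to 19 on day 5, and 4 to 7 and 10 to 12 on day 10. From day 2 to day 5 it gave 13 to 15 and 14 to 20 in tanks and 9 to 12 and 11 to 14 in vials. From day 5 to day 10 it gave 2 to 4 and 4 to 11 in tanks and 2 to 12 and 4 to 9 in vials. For the scale differences it gave 9 to 10 and 8 to 12, then 0 to 2 and 1 to 4. Repeating the quantile normalization moved the median of all genes to 0.11 for the scale difference of day 2 and to -0.04 for day 5 minus day 2 in vials, from -0.01 and -0.16. The replicate block, fixed, lost 7 member calls and gained 0, and as a random block within a scale (consensus correlation -0.02) it lost 2. Signal over background limited no member, and 3 arrays per group limit the precision throughout.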

Other observations

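Translation factors and regulators outside the list were counted too. Of 16 other factors, 9 were higher in tanks and 3 lower on day 2, 4 and 5 on day 5, and 4 and 2 on day 10, where 77.3%, 61.9% and 58.7% of all genes were called. DHH1, a helicase that represses translation and aids decapping, was higher in tanks on day 2, with a log2 signal of 10.36, 10.42 and 10.32 in tanks, against 8.89, 9.16 and 9.14 in vials. The groups did not overlap, and the log2 difference was 1.31 (SE 0.12, adjusted p = 6.36e-08). CAM1, which encodes the other gamma subunit of eEF1B beside TEF4, was higher in tanks on all 3 days (1.19, 0.62 and 0.59), and RLI1, the ribosome recycling factor, on day 2 (0.98, SE 0.14, adjusted p = 5.48e-06).

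HYP2 and ANB1 encode aerobic and hypoxic forms of eIF5A. HYP2 was lower in tanks on day 2 (-1.93, SE 0.12, adjusted p = 1.08e-09) and ANB1 higher (0.58, SE 0.12, adjusted p = 0.000294), at 1.08 with the length trend removed. Both genes are annotated at 474 nt, so removing the trend shifts both values up alike. It thus makes the difference of HYP2 smaller while it makes that of ANB1 larger.

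DHH1, DED1 and DBP1, helicase genes named after their values were seen, rose at both scales from day 2 to day 5, while TIF2, the helicase gene among the members, fell (-0.18 in tanks, a call lost in 9 alternative settings, and -0.36 in vials). DHH1 rose by a log2 difference of 0.94 (SE 0.12, adjusted p = 3.03e-06) in tanks and 2.15 (SE 0.12, adjusted p = 3.49e-10) in vials. DED1, which helps ribosomes scan structured leaders, rose by 1.15 (SE 0.13, adjusted p = 5.65e-07) in tanks and 1.90 (SE 0.13, adjusted p = 2.79e-09) in vials. Its paralog DBP1 rose by 1.47 (SE 0.15, adjusted p = 1.91e-07) in tanks and 1.02 (SE 0.15, adjusted p = 1.73e-05) in vials. HEF3, the paralog of YEF3, rose from day 5 to day 10 in vials (0.96, SE 0.10, adjusted p = 3.1e-06), and on day 10 it was lower in tanks (-1.08, SE 0.10, adjusted p = 1.15e-07).

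Of 6 regulators of translation, 3 were higher in tanks and 3 lower on day 2, 0 and 2 on day 5, and 0 and 1 on day 10. Of all genes 77.3%, 61.9% and 58.7% were called on these days. Among these regulators GCN1, which activates the kinase Gcn2 on the ribosome, was higher in tanks on day 2 (0.90, SE 0.13, adjusted p = 9.95e-06). CAF20, which binds eIF4E and represses translation, was lower on day 2 (-0.45, SE 0.11, adjusted p = 0.00192). It stayed lower on day 5 (-0.62, SE 0.11, adjusted p = 0.000215) and day 10 (-0.50, SE 0.11, adjusted p = 0.0015). CAF20 was at 0.045 on day 2 with the length trend removed (adjusted p = 0.708), and at -0.34 and -0.31 on days 5 and 10, both still called. Without tank replicate 1 of day 2 it was -0.29 on that day, also still called.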
